A study of Sus scrofa with 12 samples.

Results

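The genes described here are regulators of spermatogonia, from the stem cell state to differentiation and the entry into meiosis. They were chosen by name, as the genes of the deposited coding-gene table that carry the symbol NANOS2, NANOS3, ID4, UTF1, ZBTB16, SALL4, DAZL, STRA8, SOHLH1 or SOHLH2. Of these 10 symbols, 9 have an entry among the 21674 genes of the table, and SOHLH2 was not analysed here. Spermatogonial stem cells lie on the basement membrane of the seminiferous tubule, where they either renew themselves or give rise to progenitors. Progenitors respond to retinoic acid, become differentiating spermatogonia that carry the receptor KIT, and later enter meiosis as spermatocytes. NANOS2, ID4, UTF1, ZBTB16 and SALL4 are known from the undifferentiated cells, NANOS3 and DAZL act on RNA in germ cells, and SOHLH1, SOHLH2 and STRA8 are known for differentiation and meiotic entry.

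Testis RNA of 12 boars was sequenced in 3 libraries for each of 4 groups. Ha and Hb are Hezuo (HZ) boars, of 30 and 120 days of age, and La and Lb are Landrace (LC) boars of the same ages. No treatment is named for any group, and the testes were obtained by castration. The comparisons between ages within a breed ask how these genes change as the testis matures, and those between breeds ask whether the breeds differ at a given age. A library held between 22538417 and 23758931 estimated counts in Ha, 17165519 and 22707568 in Hb, 18523274 and 23563949 in La, and 18998959 and 23253496 in Lb. Levels are given as CPM, which are counts scaled to a common library size with TMM, a normalization that sets the bulk of the genes equal between libraries. Levels of different genes were compared in FPKM, which are per length, while the summed levels of lists are in CPM.

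A gene was called when edgeR gave it a Benjamini-Hochberg adjusted p under 0.05 over all genes tested and an absolute log2 fold change over 1. Log2 fold changes are given with their standard error, as the older over the younger group or as LC over HZ, from 3 libraries a group. An exact permutation test of 3 libraries against 3 cannot give a p under 0.1, so each adjusted p rests on the spread that edgeR models across genes. These are whole testis samples, in which fewer cells of a type and less RNA per cell cannot be told apart.

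The labelled tissue was checked against markers of its cells, and genes of Sertoli, Leydig, peritubular and meiotic cells were present. The 10 spermatid markers, of which PRM1 had the highest mean FPKM in each group, summed to between 4.41 and 8.87 CPM in the 6 libraries of 30-day-old boars. In Hb this sum was 6524, 5789 and 8232 CPM and in Lb it was 4193, 3452 and 3154 CPM. The 8 spermatocyte markers, with PIWIL1 highest in mean FPKM except in La, where it was MEIOB, summed to 31.7, 35.6 and 19.9 CPM in Ha and to 16.1, 14.1 and 12.7 CPM in La. At 120 days their sum was 783, 676 and 651 CPM in Hb and 502, 485 and 494 CPM in Lb. RNA of these meiotic and later germ cell markers thus took a far larger share of every older library than of any younger one.

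Ha3 and Hb1 each differed from the others of their group in some genes of germ, Sertoli or Leydig cells. Ha3 had 56.0 CPM of DAZL against 103 and 92.8 CPM in Ha1 and Ha2, and 15.7 CPM of DMRTB1 against 41.3 and 46.6 CPM. The Sertoli cell hormone AMH was at 263 CPM in Ha3 and at 131 and 133 CPM in the others of Ha. Hb1 had 1444 CPM of CYP17A1, a steroid-synthesis enzyme of Leydig cells, where Hb2 and Hb3 had 21.2 and 19.3 CPM. Its level of ZBTB16, at 42.4 CPM, was below the 76.8 and 61.9 CPM of Hb2 and Hb3. Both were chosen after their values were seen, and calls of the members are given with and without them. Over all genes it was Hb2 that lay farthest from the others of Hb, with a chi-square per gene of 95 against Hb1 and 59.7 against Hb3, where Hb1 and Hb3 had 41.7.

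Within a library, the members spanned a wide range of FPKM. In Ha the medians ran from DAZL, at 20.2 FPKM, and SOHLH1, at 17.1 FPKM, through ZBTB16 at 11.7, NANOS3 at 8.36, SALL4 at 2.4 and ID4 at 2 FPKM to NANOS2 at 0.72, UTF1 at 0.61 and STRA8 at 0.15 FPKM. Neighbours in this order whose libraries overlapped were DAZL and SOHLH1, SALL4 and ID4, ID4 and NANOS2, and NANOS2 and UTF1. In La the order opened with ZBTB16 at 9.93 and SOHLH1 at 9.55 FPKM, which overlapped, followed by DAZL at 5.7 and NANOS3 at 5.34 FPKM, which also overlapped. By the median, DAZL thus headed the younger HZ boars but not the younger LC boars. In Ha3, however, SOHLH1 was above it, at 14.1 against 12.1 FPKM. After them in La came ID4 at 2.24 and SALL4 at 1.81 FPKM, again with overlapping libraries, then NANOS2 at 0.56, UTF1 at 0.49 and STRA8 at 0.07 FPKM.

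At 120 days DAZL was first in both breeds, at a median of 20.4 FPKM in Hb and 22.6 FPKM in Lb, apart from SOHLH1 in all libraries. The medians of SOHLH1 were 5.83 FPKM in Hb and 8.99 FPKM in Lb. ZBTB16 came next, at 4.88 FPKM in Hb and 5.44 FPKM in Lb, followed by ID4, at 2.25 and 3.05 FPKM. NANOS3 had 2.11 FPKM in Hb and 0.91 FPKM in Lb, STRA8 had 0.85 and 1.67 FPKM, and SALL4 had 0.57 and 0.75 FPKM. UTF1, at 0.07 and 0.19 FPKM, and NANOS2, at 0.03 FPKM in both, closed the order. In Hb only DAZL and SOHLH1, and SALL4 and UTF1, were neighbours without overlap. In Lb the neighbours that overlapped were ID4 and STRA8, and STRA8 and NANOS3.

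**Figure D1:**
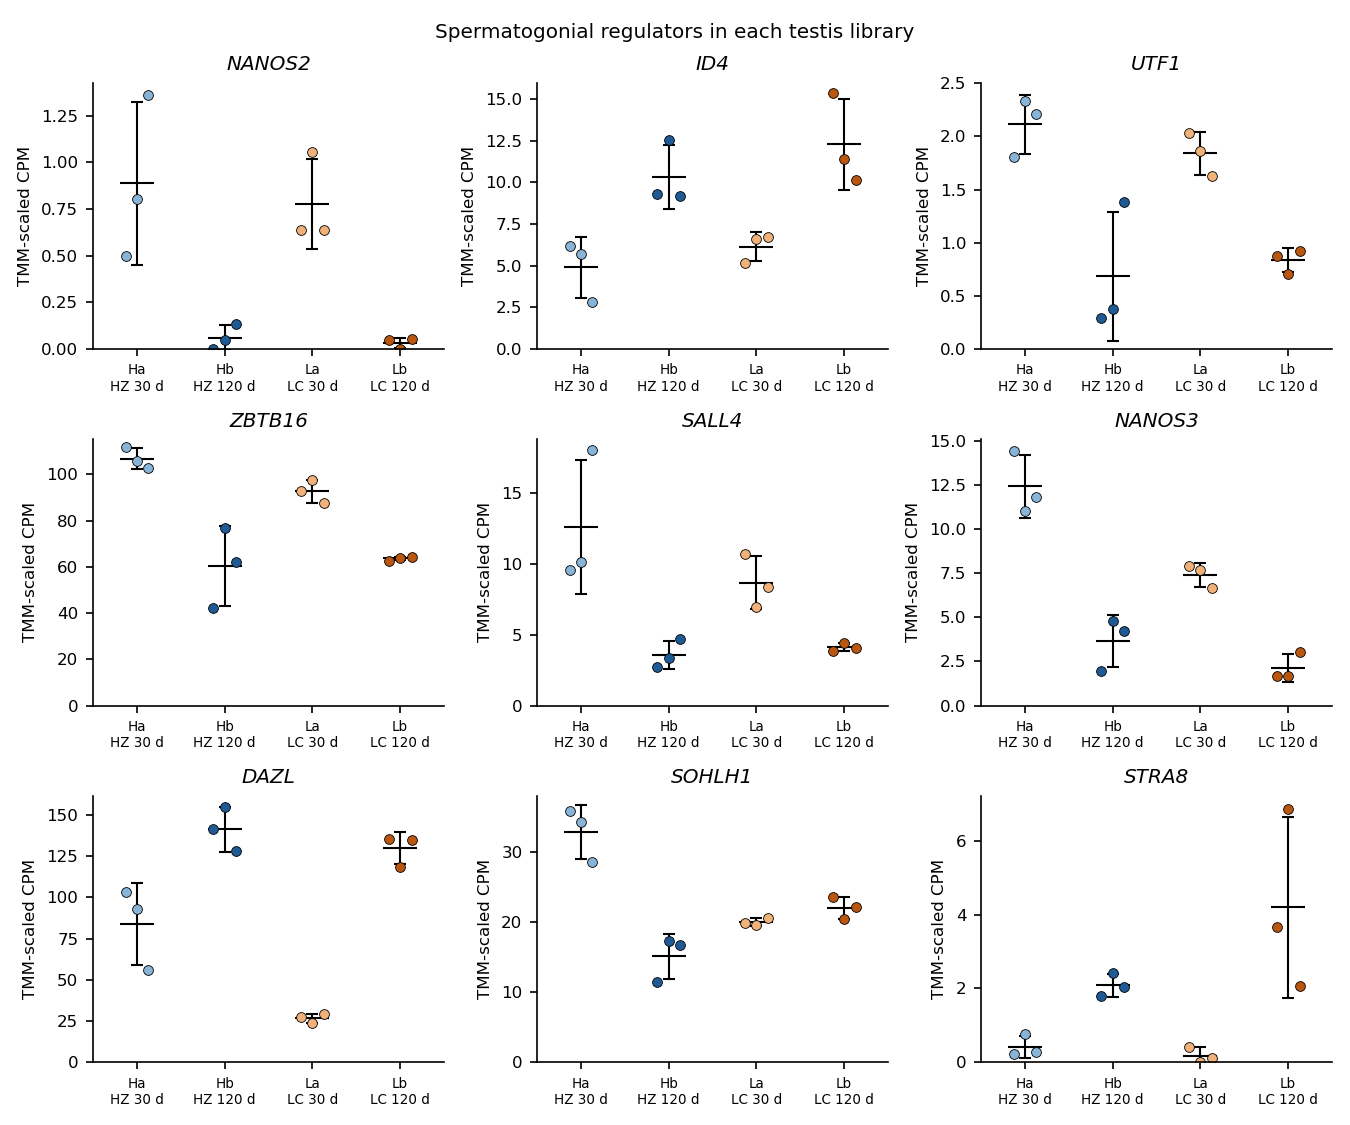
TMM-scaled CPM of the 9 members in each library (points) of Ha, Hb, La and Lb, with the mean and SD of each group as bars. DAZL lies between 23.8 and 29.1 CPM in La and between 119 and 155 CPM in the 6 libraries of 120-day-old boars, while NANOS2 falls to at most 0.132 CPM at 120 days.

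In HZ boars, 7 of the 9 members were called between the ages, where 51.4% of the 16548 genes tested were. In LC boars it was also 7 of 9, against 47.6% of 16637 genes. In HZ, 2 members rose with age (28.2% of all genes did) and 5 fell (23.2%). The corresponding numbers in LC were 3 that rose (27.5% of all genes) and 4 that fell (20.1%). The median log2 fold change of the members was -1.12 in HZ and -0.53 in LC, where that of all genes was -0.02 and 0.01. NANOS2, with few counts in the older boars, was the lowest member at either end of its counting interval, so these medians do not depend on its fitted value. So much of the transcriptome changed with age that a call by itself does not set a member apart from other genes. DESeq2 also called 7 members in each breed, limma on log2(FPKM + 0.1) called 7 in HZ and 6 in LC, and limma on log2(FPKM + 1) called 4 and 3. Without Ha3 or Hb1 edgeR called 5 in HZ, and without La1 it called 4 in LC. Total counts or FPKM in place of TMM moved the median of all genes by as much as -0.45 in HZ and -0.28 in LC, so the fold changes below are relative to the TMM scale.

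NANOS2, an RNA-binding protein that keeps mouse stem cells undifferentiated, was nearly absent from the older testes. Its estimated counts were 13, 20 and 35 in Ha and 0, 1 and 2 in Hb. In La they were 15, 21 and 16, and in Lb 1, 0 and 1. Each younger library had more counts than any older one. The ratio of Ha to Hb, scaled by TMM, was 15.9, with a 95% counting interval from 5.23 to 79.2 (edgeR adjusted p = 0.00497). For La over Lb it was 23.6, with an interval from 6.22 to 200.2 (edgeR adjusted p = 0.000703). These intervals cover counting error only. NANOS2 stayed called in both breeds without any 1 library. Its fitted log2 fold changes depend on the prior count. In HZ they lay between -4.85 without Hb3 and -3.32 without Hb1 (-3.40 without Ha3). In LC they lay between -4.74 without Lb3 and -3.82 without Lb2. Limma on log2(FPKM + 1) did not call NANOS2 in either breed, at -0.77 in HZ and -0.71 in LC.

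UTF1, a chromatin-bound protein of undifferentiated spermatogonia, was also low. It had 1.80, 2.33 and 2.21 CPM in Ha and 0.290, 0.371 and 1.38 CPM in Hb. The younger and older HZ libraries did not overlap, and Hb3 was well above Hb1 and Hb2. The log2 fold change was -1.66 ± 0.61 (edgeR adjusted p = 0.0437). The call was lost without Ha1, Ha2, Ha3, Hb1 or Hb2 (adjusted p of edgeR between 0.0774 and 0.119), and without Hb3 the value was -2.65. In LC boars it had 2.04, 1.86 and 1.63 CPM in La and 0.879, 0.706 and 0.924 CPM in Lb. Here too the ages did not overlap, with a log2 fold change of -1.12 ± 0.33 (edgeR adjusted p = 0.0148). Without La1 the edgeR adjusted p was 0.0575.

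SALL4, a zinc-finger transcription factor of undifferentiated germ cells, fell in both breeds. It was at 9.59, 10.2 and 18.1 CPM in Ha and at 2.72, 3.39 and 4.68 CPM in Hb. Ha3 was the highest of all, and no older HZ library reached the lowest younger one. The log2 fold change was -1.81 ± 0.35 (edgeR adjusted p = 0.0026), and -1.46 without Ha3. LC boars had 10.7, 6.98 and 8.35 CPM in La and 3.89, 4.42 and 4.05 CPM in Lb, again without overlap. Their log2 fold change was -1.06 ± 0.23 (edgeR adjusted p = 0.00345), and without La1 it was -0.89, which is under the threshold of 1.

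ZBTB16, also known as PLZF, is a zinc-finger repressor needed for self-renewal. It was lower in the older boars by less than the threshold. Levels were 112, 106 and 103 CPM in Ha and 42.4, 76.8 and 61.9 CPM in Hb. Those in La were 92.8, 97.7 and 87.6 CPM, and those in Lb were 62.7, 64.0 and 64.2 CPM. The ages did not overlap in either breed. The log2 fold change was -0.82 ± 0.21 in HZ (edgeR adjusted p = 0.00912), -0.62 without Hb1 and past the threshold, at -1.06, without Hb2. In LC it was -0.53 ± 0.10 (edgeR adjusted p = 0.00146). With scaling by total counts alone the HZ value was -1.11, and from FPKM it was -1.32 or -1.17, all past the threshold.

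ID4 inhibits basic helix-loop-helix factors and marks stem cells in the mouse. Of the genes known from undifferentiated cells among the members, it was the one that rose with age on the TMM scale, though not past the threshold when scaled by total counts or in FPKM. It had 6.18, 5.70 and 2.80 CPM in Ha and 9.28, 12.5 and 9.17 CPM in Hb. LC boars had 5.13, 6.58 and 6.72 CPM in La and 15.4, 11.4 and 10.1 CPM in Lb. All older libraries were above all younger ones within each breed, and Ha3 was the lowest of the 12. The log2 fold change was 1.08 ± 0.34 in HZ (edgeR adjusted p = 0.0227) and 1.01 ± 0.22 in LC (edgeR adjusted p = 0.00369). Both lay just above the threshold. In HZ it was 0.79 without Ha3 and 0.89 without Hb2, and in LC 0.89 without La1 and 0.83 without Lb1, none of them called. Under total counts the values were 0.78 in HZ and 0.84 in LC, and from log2(FPKM + 0.1) they were 0.62 and 0.67. From log2(FPKM + 1) they were 0.42 and 0.50. With all 12 libraries in a single fit the LC value was 0.99996, just under the threshold.

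NANOS3 is an RNA-binding protein known for the survival of primordial germ cells, and here is an assembled gene to which the deposited table gives that symbol. Its levels were 14.4, 11.0 and 11.8 CPM in Ha and 1.97, 4.78 and 4.22 CPM in Hb. La had 7.89, 7.69 and 6.64 CPM and Lb had 1.67, 1.65 and 3.03 CPM. Younger libraries were above older ones in both breeds, and those of Ha were the highest. NANOS3 fell by 1.76 ± 0.35 on the log2 scale in HZ (edgeR adjusted p = 0.00291). In LC it fell by 1.79 ± 0.31 (edgeR adjusted p = 0.000955).

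DAZL, an RNA-binding regulator of translation in germ cells, was higher at 120 days in LC on each scale, and in HZ on the TMM scale. Its levels were 103, 92.8 and 56.0 CPM in Ha and 141, 155 and 128 CPM in Hb. In LC boars they were 27.2, 23.8 and 29.1 CPM in La and 136, 119 and 135 CPM in Lb. In CPM the ages did not overlap in either breed, the older libraries of the breeds overlapped, and La was the lowest group. DAZL rose in LC, with a log2 fold change of 2.30 ± 0.13 (edgeR adjusted p = 1.22e-06). In HZ it was 0.75 ± 0.23 (edgeR adjusted p = 0.0195), under the threshold of 1, and 0.52 without Ha3. With total counts alone the HZ value was 0.45 and from log2(FPKM + 0.1) it was 0.30 (limma adjusted p = 0.286). In FPKM the HZ libraries overlapped, with 22.4, 20.2 and 12.1 in Ha and 20.4, 25.8 and 19.5 in Hb.

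SOHLH1 is a basic helix-loop-helix transcription factor of differentiating spermatogonia. It had 35.8, 34.2 and 28.5 CPM in Ha and 11.4, 17.2 and 16.6 CPM in Hb. In La it had 19.8, 19.5 and 20.6 CPM and in Lb 23.5, 20.4 and 22.1 CPM. The ages were well apart in HZ and overlapped in LC. SOHLH1 fell in HZ, with a log2 fold change of -1.12 ± 0.20 (edgeR adjusted p = 0.002). Without Hb1 it was -0.95, which is not called, and without Ha3 it was -1.22. In LC the value was 0.15 ± 0.13 (edgeR adjusted p = 0.322), and it turned negative, at -0.01, with total counts and at -0.16 or -0.14 from FPKM.

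STRA8, which retinoic acid induces and which is needed to enter meiosis, was low throughout and higher at 120 days. It had 0.230, 0.763 and 0.272 CPM in Ha and 1.80, 2.41 and 2.04 CPM in Hb. La had 0.424, 0 and 0.119 CPM and Lb had 3.65, 6.87 and 2.05 CPM. No younger library reached an older one. The log2 fold change was 2.30 ± 0.54 in HZ (edgeR adjusted p = 0.00656), 3.02 without Ha2, and 0.59, not called, by limma on log2(FPKM + 1). In LC it was 4.46 ± 0.82 (edgeR adjusted p = 0.00136), and 5.89 without La1, where the 2 younger libraries that remain have at most 3 counts and the fitted value depends on the prior count. The gene lies on chromosome 18 at 14055258 to 14080399 (Sscrofa11.1) and shares 2110 bp with the end of LOC100525318, annotated as similar to a solute carrier. That neighbour had 93, 94.1 and 91 counts in Ha, 899, 455 and 713 in Hb, 66, 34 and 48 in La, and 688, 1085 and 767 in Lb. It rose by 3.47 ± 0.36 in HZ (edgeR adjusted p = 0.000137) and by 4.26 ± 0.26 in LC (edgeR adjusted p = 2.39e-06). Whether reads of the shared stretch entered the counts of STRA8 was not tested.

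**Figure D2:**
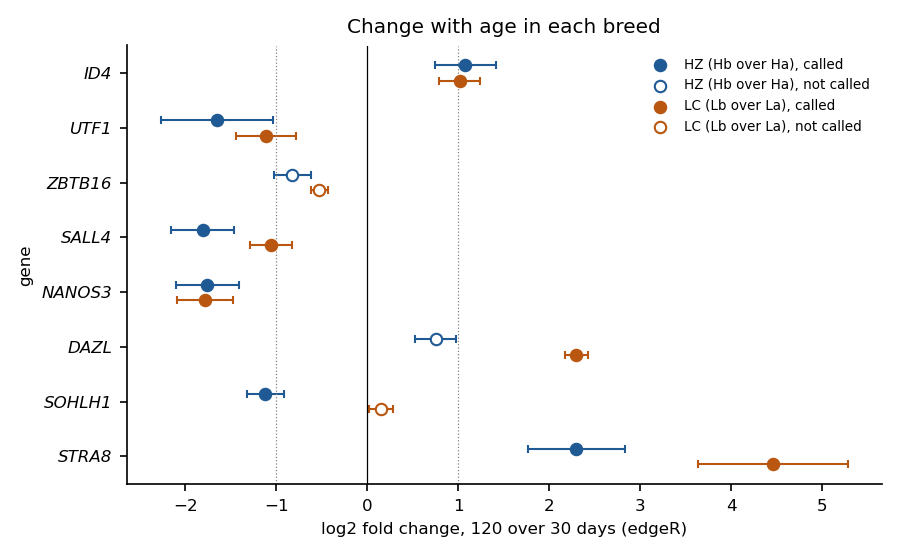
Log2 fold change of 120 over 30 days in HZ and in LC for 8 members, with standard errors as bars, filled points for called genes and dotted lines at the thresholds of 1 and -1 (NANOS2, with at most 2 counts in each older library, is left out). DAZL (0.75 in HZ and 2.30 in LC) and SOHLH1 (-1.12 and 0.15) are the members whose changes were called as different between the breeds.

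Markers of other cell types moved with age beside the members. In both age comparisons, all 8 spermatocyte markers and all 9 spermatid markers tested were called higher. Of the 8 Sertoli cell markers, 4 were called lower in each breed. In mean FPKM, INHA was the highest of them in Ha and La and CLDN11 in Hb and Lb. Their sum was 1270, 1210 and 1664 CPM in Ha, 405, 579 and 467 in Hb, 2642, 3213 and 2914 in La, and 605, 753 and 640.5 in Lb. Of the 7 Leydig cell markers, 4 were lower with age in HZ, or 6 without Hb1, and 5 in LC. The highest mean FPKM was that of CYP17A1 in Ha and La and that of INSL3 in Hb and Lb. They summed to 10086, 9586 and 8750 CPM in Ha, 4066, 331 and 268 in Hb, 13676, 9326 and 11211 in La, and 4922, 7417 and 3086 in Lb. No gene of the lists of spermatocytes, spermatids and somatic cells was at or under 3 counts in every library. The part of these cells in the changes of the members was not tested.

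The lists of the wall and stroma of the tubules and of vessels and immune cells also moved with age. Of 10 peritubular and stromal markers, 8 were called lower in HZ, or 9 without Hb1, and in LC 5 were lower and 1 was higher. Their sum, with COL3A1 highest in mean FPKM except in Hb, where it was ACTA2, was 4731, 4586 and 4509 CPM in Ha and 608, 354 and 255 CPM in Hb. In LC it was 6908, 6180 and 7613 CPM in La and 3084, 3007 and 2571 CPM in Lb. All 5 endothelial markers in HZ, or 4 without Ha3 or without Hb1, and 3 in LC were lower with age, and their sum, with VWF highest in each group, was 669, 681 and 616 CPM in Ha, 173, 305 and 186 in Hb, 795, 627 and 756 in La, and 316, 497 and 278 in Lb. The 5 macrophage markers, with CSF1R highest except in Ha, where it was CD163, summed to 124, 101 and 106 CPM in Ha, 17.5, 20.1 and 10.7 in Hb, 122, 107 and 115 in La, and 21.3, 37.8 and 35.9 in Lb, with 5 called lower in HZ and 4 in LC. The 9 members went both ways with age, so their sum does not show how far they moved. It was 284, 263 and 224 CPM in Ha and 211, 273 and 228 in Hb. In LC it was 167, 165 and 161 CPM in La and 247, 228 and 242 in Lb.

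Ratios of FPKM within a library do not depend on its scaling. DAZL over ZBTB16 was 1.54 ± 0.41 in Ha (mean and SD, n = 3) and 4.82 ± 1.46 in Hb. In LC this ratio was 0.566 ± 0.087 in La and 4.0 ± 0.32 in Lb. DAZL thus gained on ZBTB16 with age in both breeds. ID4 over ZBTB16 moved in the same direction, from 0.144 ± 0.051 in Ha to 0.554 ± 0.118 in Hb and from 0.209 ± 0.033 in La to 0.610 ± 0.141 in Lb. SALL4 over ZBTB16 went the other way, from 0.249 ± 0.102 to 0.125 ± 0.036 in HZ and from 0.186 ± 0.042 to 0.130 ± 0.007 in LC. NANOS3 over ZBTB16 also went down, from 0.748 ± 0.082 to 0.376 ± 0.070 in HZ and from 0.512 ± 0.032 to 0.214 ± 0.079 in LC. For SOHLH1 over ZBTB16 the age difference had opposite signs in the breeds, with 1.38 ± 0.12 in Ha and 1.13 ± 0.11 in Hb but 0.970 ± 0.078 in La and 1.55 ± 0.12 in Lb. Against DDX4, an RNA helicase of germ cells, DAZL had a ratio of 2.58 ± 0.74 in Ha and 0.158 ± 0.030 in Hb, and of 1.3 ± 0.11 in La and 0.209 ± 0.007 in Lb. DDX4 itself rose with age, by 4.79 ± 0.16 in HZ and 4.91 ± 0.15 in LC, so this ratio is not a level per germ cell. These ratios are a description and were not tested.

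At 30 days the breeds differed in DAZL. Of the 8 members tested, 1 was called in Ha vs La, and it was lower in LC, where 7.62% of 15648 genes were called. DAZL had a log2 fold change of -1.66 ± 0.22 (edgeR adjusted p = 0.00298), and every La library was below every Ha library. Without Ha3, which has the least DAZL of its group, the value was -1.88 (edgeR adjusted p = 0.000266). SOHLH1 was also lower in every La library, by less than the threshold, with -0.72 ± 0.12 (edgeR adjusted p = 0.0062) and -0.82 without Ha3. NANOS3 had -0.75 ± 0.17 (edgeR adjusted p = 0.0181), with no overlap either. As with SOHLH1 and NANOS3, the members known from undifferentiated cells were not called. ZBTB16 was at -0.21 ± 0.08 (edgeR adjusted p = 0.102), without overlap of the libraries, and SALL4 at -0.54 ± 0.28 (edgeR adjusted p = 0.202), which was -0.19 without Ha3. ID4, UTF1 and NANOS2 had values of 0.32, -0.20 and -0.20, and without Ha3 that of ID4 was 0.04 and that of NANOS2 turned to 0.23. Without Ha1 ID4 was at 0.53 and NANOS2 at -0.49, and without La3 UTF1 was at -0.11. STRA8 did not pass the filter on low counts. The median of the 8 members tested was -0.37, and that of all genes 0.00. Without Ha3 all 9 members passed the filter, and their median was -0.24.

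Some other germ cell genes of the younger boars were also called lower in LC. DMRTB1, a transcription factor that acts between mitosis and meiosis, had 41.3, 46.6 and 15.7 CPM in Ha and 8.06, 5.17 and 6.60 CPM in La. All La libraries were below all Ha libraries, with a log2 fold change of -2.39 ± 0.39 (edgeR adjusted p = 0.00628), and -2.74 without Ha3. UCHL1, a ubiquitin hydrolase used as a marker of spermatogonia in pigs, had 88, 93.9 and 70.2 CPM in Ha and 37.2, 37.0 and 38.2 CPM in La. Its log2 fold change was -1.17 ± 0.12 (edgeR adjusted p = 0.00143), again without overlap. Among the 8 spermatocyte markers, 4 were called lower in LC by edgeR, namely SYCP1, SYCP2, HORMAD1 and PIWIL1. Limma on log2(FPKM + 1) called 0 of them and on log2(FPKM + 0.1) it called 3. Of the 8 Sertoli cell markers, AMH, FSHR and INHA were called higher in LC, and of the other 5 the values were positive in 3 and negative in 2. Of the 7 Leydig cell markers HSD17B3 was called higher, 3 others had positive values and 3, STAR, CYP11A1 and HSD3B1, had negative ones of -0.40, -0.47 and -0.39 that were not called. Without Ha3, 2 of the 7 were called higher. Of the 10 peritubular and stromal markers edgeR called 0, or 1 higher in LC without Ha3, but 8 had an unadjusted p under 0.05 and 8 values were positive, and their summed CPM was higher in every La library than in any of Ha. DESeq2 and limma called 0 of them. Of the 5 endothelial and the 5 macrophage markers edgeR also called 0, with 2 and 1 at an unadjusted p under 0.05. Of the spermatid markers 5 passed the filter and edgeR called 0, with 0 at an unadjusted p under 0.05, as did DESeq2 and limma, and 4 of the 5 values were positive. In the list of stem and progenitor genes 7 of 19 values were positive. Apart from PIWIL1, INHA, PRM1, CYP17A1, COL3A1, VWF and CSF1R, the markers were named after their values were seen. The part of cell numbers in the difference of DAZL was not tested.

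At 120 days no member was called between the breeds. By edgeR it was 0 of 8 tested in Hb vs Lb, where 3.85% of 16311 genes were called, and 1 member, SOHLH1, had an unadjusted p under 0.05. DESeq2 called 0 members, as did limma on both FPKM scales. SOHLH1 was higher in every Lb library than in any Hb library, with a log2 fold change of 0.58 ± 0.22 (edgeR adjusted p = 0.152), and 0.40 without Hb1. DAZL was at -0.08 ± 0.14 (edgeR adjusted p = 0.757), its libraries overlapped, and the sign turned, at 0.04, on the FPKM scales and, at 0.02, without Hb2. STRA8 had the value of largest size, 1.04 ± 0.47 (edgeR adjusted p = 0.213), which was 0.50 without Lb2. NANOS3 had -0.75 ± 0.47 (edgeR adjusted p = 0.345), with values between -1.12 without Lb3 and -0.48 without Hb2. The 4 others were at 0.29 (ID4), 0.36 (UTF1), 0.11 (ZBTB16) and 0.24 (SALL4). Without Hb1, UTF1 was at -0.01, ZBTB16 at -0.10 and SALL4 at 0.06, and without Lb1, ID4 was at 0.10. The highest values were 1.36 for UTF1 and 0.47 for SALL4, both without Hb3, and 0.35 for ZBTB16 and 0.48 for ID4, both without Hb2. NANOS2 did not pass the filter. The median of the members was 0.26, or 0.03 without Hb1, and that of all genes 0.00.

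The call count over all genes was itself unsteady in Hb vs Lb. It was 628 with all 6 libraries, 1029 without Hb2, 119 without Hb3, 182 without Lb1, 97 without Lb2 and 139 without Lb3. In this comparison 5 of the 10 peritubular and stromal markers were called higher in LC, with 1 endothelial and 1 macrophage marker, and 1 spermatid marker was lower. Of the 8 Sertoli cell markers edgeR called 0, with 3 at an unadjusted p under 0.05, and DESeq2 called 1 and limma 0 or 2 on its FPKM scales. Of the 7 Leydig cell markers it also called 0, with 3 at an unadjusted p under 0.05, where DESeq2 called 0 and limma 1 or 0. Without Hb1, however, 5 of the 7 were called higher in LC, and the median of the list was 4.08 in place of 1.95. The endothelial call was lost without Hb1, and 2 spermatid markers were called lower. For the 8 spermatocyte markers it was 0, with 4 at an unadjusted p under 0.05, while DESeq2 called 1 and limma 0. Their part in the values of the members was not tested.

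The test of the interaction asks whether the change with age differed between the breeds. It uses all 12 libraries and thus the same samples as the 4 pairwise comparisons. Of the 9 members 2 were called, DAZL and SOHLH1, both with a more positive change in LC, where 5.14% of 17332 genes were called. Over all genes the 890 calls became 437 without Ha1, 501 without Ha2, 566 without Hb3, 577 without La1, 490 without La2, 461 without La3 and 575 without Lb2, while the number of members called was 2 each time. For DAZL the change in LC exceeded that in HZ by 1.53 ± 0.27 log2 units (edgeR adjusted p = 0.0104). This was 1.79 without Ha3 and 1.56 without Hb1. For SOHLH1 the difference was 1.26 ± 0.24 (edgeR adjusted p = 0.0126), 1.39 without Ha3 and 1.12 without Hb1. Both were called in each of the other settings that were tried. For DAZL, La lay below Ha while Lb and Hb overlapped, and for SOHLH1 both LC groups lay between the higher Ha and the lower Hb. Of the marker lists, 5 of 10 peritubular and stromal genes had a called interaction with a more positive change in LC, or 4 without Ha3 and 6 without Hb1, as had 1 endothelial and 1 macrophage gene, and 2 of 10 spermatid genes had a more negative one, or 1 without Ha3 or without Hb1. Of the 7 Leydig cell markers edgeR called 0, with 3 at an unadjusted p under 0.05, DESeq2 0 and limma 2 or 1, but 5 had a called and more positive change in LC without Hb1. Of the 8 Sertoli cell markers edgeR called 0, with 5 at an unadjusted p under 0.05, DESeq2 2 and limma 1 on each FPKM scale, and without Hb1 edgeR called 1 with a more negative change in LC. Of the 8 spermatocyte markers it called 0, with 4 at an unadjusted p under 0.05, DESeq2 1 and limma 0, and without Ha3 edgeR called 1 with a more positive change in LC. Their part in the differences of DAZL and SOHLH1 was not tested.

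The other members had interaction values with wide errors or near 0. STRA8 was at 2.16 ± 1.08 (edgeR adjusted p = 0.249), 1.44 without Ha2 and 3.60 without La1. SALL4 was at 0.74 ± 0.42 (edgeR adjusted p = 0.307), and at 0.42 without Ha3. UTF1, ZBTB16 and NANOS2 gave 0.52, 0.28 and -0.51, of which the last depends on the prior count, since the older libraries hold at most 2 counts of NANOS2. Without Hb3 the value of UTF1 was 1.55 and that of NANOS2 was 0.51. UTF1 was at 0.21 without Hb1, and ZBTB16 was at 0.11 without Hb1 and at 0.49 without Hb2. NANOS3, at -0.05, and ID4, at -0.08, changed sign under several settings. The median of the members was 0.52, or 0.42 without Ha3 and 0.21 without Hb1, and that of all genes 0.02. Scaling by total counts moved the median of all genes by 0.15.

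Further genes of the stem and progenitor state were taken from a list of 22, of which 19 passed the filter in each age comparison. In HZ 4 were called higher, or 3 without Hb1, and 8 lower with age, with a median of -1.09 that was -0.67 without Ha3 and -0.87 without Hb1. In LC 5 were higher and 7 lower, with a median of -0.63. The transcription factors ETV5 and POU3F1, which act downstream of the growth factor GDNF, rose in both breeds. ETV5 had 1.82 ± 0.17 in HZ (edgeR adjusted p = 8.21e-05) and 1.24 ± 0.14 in LC (edgeR adjusted p = 6.45e-05), where it was not called by limma, with 0.92 on log2(FPKM + 0.1) and 0.88 on log2(FPKM + 1). POU3F1 had 3.71 ± 0.50 in HZ (edgeR adjusted p = 0.000453) and 3.91 ± 0.40 in LC (edgeR adjusted p = 4.8e-05). The receptors for GDNF went the other way. GFRA1, its co-receptor, fell by 2.15 ± 0.41 in HZ (edgeR adjusted p = 0.00252), and RET, the kinase, fell by 2.26 ± 0.16 in LC (edgeR adjusted p = 5.59e-06). Both were also lower with age, without overlap, in the breed not named. GFRA1 had 25.1, 29.4 and 27.9 CPM in La and 6.66, 11.3 and 5.24 CPM in Lb. RET had 28.9, 34.9 and 54.9 CPM in Ha and 4.87, 16.6 and 13.7 CPM in Hb.

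Other members of that list also moved far with age. In each of these lists, a gene is named for the breed where its adjusted p was among the 3 smallest of its direction. A gene given for 1 breed may therefore have changed in the other as well. LHX1, a homeobox factor, rose by 3.34 ± 0.37 in HZ (edgeR adjusted p = 0.000174), and EGR2, a zinc-finger factor, had -3.18 ± 0.48 (edgeR adjusted p = 0.000805). EOMES, a T-box factor of a stem cell subset in the mouse, had 29, 46 and 39 counts in Ha and 3, 2 and 2 in Hb. All younger HZ libraries were above the older ones, and the ratio was 11.5 with a counting interval from 5.38 to 29.1 (edgeR adjusted p = 0.000634). In LC, PIWIL4, which guides piRNA silencing in fetal germ cells, had -4.08 ± 0.43 (edgeR adjusted p = 5.82e-05). FGFR3, a growth factor receptor, had -2.18 ± 0.18 (edgeR adjusted p = 1.34e-05), and the adhesion protein CDH1 had 1.39 ± 0.30 (edgeR adjusted p = 0.00327). In the breed not named, LHX1, EGR2, EOMES and PIWIL4 moved the same way without overlap of the ages in CPM. There FGFR3 and CDH1 had ages that overlapped. By limma CDH1 was not called on either FPKM scale, and EOMES and EGR2 in HZ were not called on log2(FPKM + 1). Between the breeds at 30 days, UCHL1 was the 1 of 19 that was called, and without Ha3 1 was higher and 2 were lower in LC. In Hb vs Lb edgeR called 0 of 17, with 4 at an unadjusted p under 0.05, while DESeq2 called 1 and limma 0. The interaction had 0 of 19 by edgeR, with 7 at an unadjusted p under 0.05, and DESeq2 called 2 and limma 0, while without Hb1 edgeR called 1 with a more negative change in LC. NEUROG3, a basic helix-loop-helix factor of progenitors, was at or under 3 counts in every library.

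Of 12 other genes of differentiation and meiotic entry, 10 have an entry in the table and passed the filter. In HZ 2 were higher and 4 lower with age, or 3 without Hb1, with a median of -0.56, and in LC 3 were higher and 1 lower, with a median of 0.48. REC8, the cohesin subunit of meiosis, rose by 4.96 ± 0.46 in HZ (edgeR adjusted p = 8.39e-05) and by 6.15 ± 0.29 in LC (edgeR adjusted p = 5.15e-07). SYCP3, of the synaptonemal complex and also among the spermatocyte markers, rose by 1.78 ± 0.46 in HZ (edgeR adjusted p = 0.0105, not called by limma on log2(FPKM + 1)) and by 3.10 ± 0.33 in LC (edgeR adjusted p = 5.64e-05). CCND2, a cyclin that acts before DNA replication, fell by 3.42 ± 0.14 in HZ (edgeR adjusted p = 3.12e-06) and by 3.14 ± 0.20 in LC (edgeR adjusted p = 2.54e-06). RARA, a retinoic acid receptor, had -1.03 ± 0.15 in HZ (edgeR adjusted p = 0.000634), at the threshold. It was not called without Ha2 (-0.97), with DESeq2 or with RLE factors (both -0.98).

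Among these 10 genes, called differences between the breeds were found for KIT, its ligand KITLG, DMRT1 and DMRTB1. KITLG, the ligand made by Sertoli cells, had 101, 96.7 and 74.1 CPM in Ha and 28.8, 21.2 and 18.6 CPM in Hb. In La it had 82.0, 72.2 and 112 CPM and in Lb 49.2, 41.4 and 46.0 CPM. Lb was above Hb in all libraries. KITLG fell in HZ, with -1.99 ± 0.21 (edgeR adjusted p = 0.000146). In Hb vs Lb it had 1.04 ± 0.19 (edgeR adjusted p = 0.0275), a call that was lost without Hb3, Lb1, Lb2 or Lb3 (adjusted p of edgeR between 0.0791 and 0.0977). It was also lost with all 12 libraries in a single fit (0.99), by limma on log2(FPKM + 0.1) and log2(FPKM + 1) (0.90 and 0.77) and with the replicate block (edgeR adjusted p = 0.0659). KITLG was the 1 gene of 10 called there, and DMRTB1 was the 1 called in Ha vs La, where 2 were called without Ha3.

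KIT, the receptor, had 70.9, 67.6 and 42.9 CPM in Ha, 24.2, 41.2 and 24.9 in Hb, 39.2, 35.2 and 46.7 in La, and 54.2, 52.2 and 42.0 in Lb. Its HZ libraries were lower at 120 days, and its LC libraries overlapped. The change in LC exceeded that in HZ by 1.3 ± 0.34 (edgeR adjusted p = 0.041). The call held without Ha3, Hb2 or Lb3 and was lost without each of the other 9 libraries (adjusted p of edgeR between 0.0655 and 0.102) and with the replicate block (edgeR adjusted p = 0.057). DMRT1, a transcription factor that restrains meiosis, had 81.6, 82.5 and 57.2 CPM in Ha and 40.0, 51.3 and 42.1 CPM in Hb. It had 41.2, 47.4 and 42.4 CPM in La and 62.2, 52.8 and 58.1 CPM in Lb. The older libraries were the lower ones in HZ and the higher ones in LC, and the difference of the changes was 1.13 ± 0.22 (edgeR adjusted p = 0.0154). For DMRTB1, with 29.5, 37.1 and 21.4 CPM in Hb and 43.9, 59.1 and 50.0 CPM in Lb, it was 3.18 ± 0.50 (edgeR adjusted p = 0.00664). The ages overlapped in HZ, and in LC DMRTB1 rose by 2.96 ± 0.20 (edgeR adjusted p = 4.1e-06). Thus 3 of the 10 genes had a called interaction, each with the more positive change in LC, and without Ha3 it was 6 of 10. Over all genes 5.14% were called, and of these calls 609 were more positive and 281 more negative in LC.

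**Figure D3:**
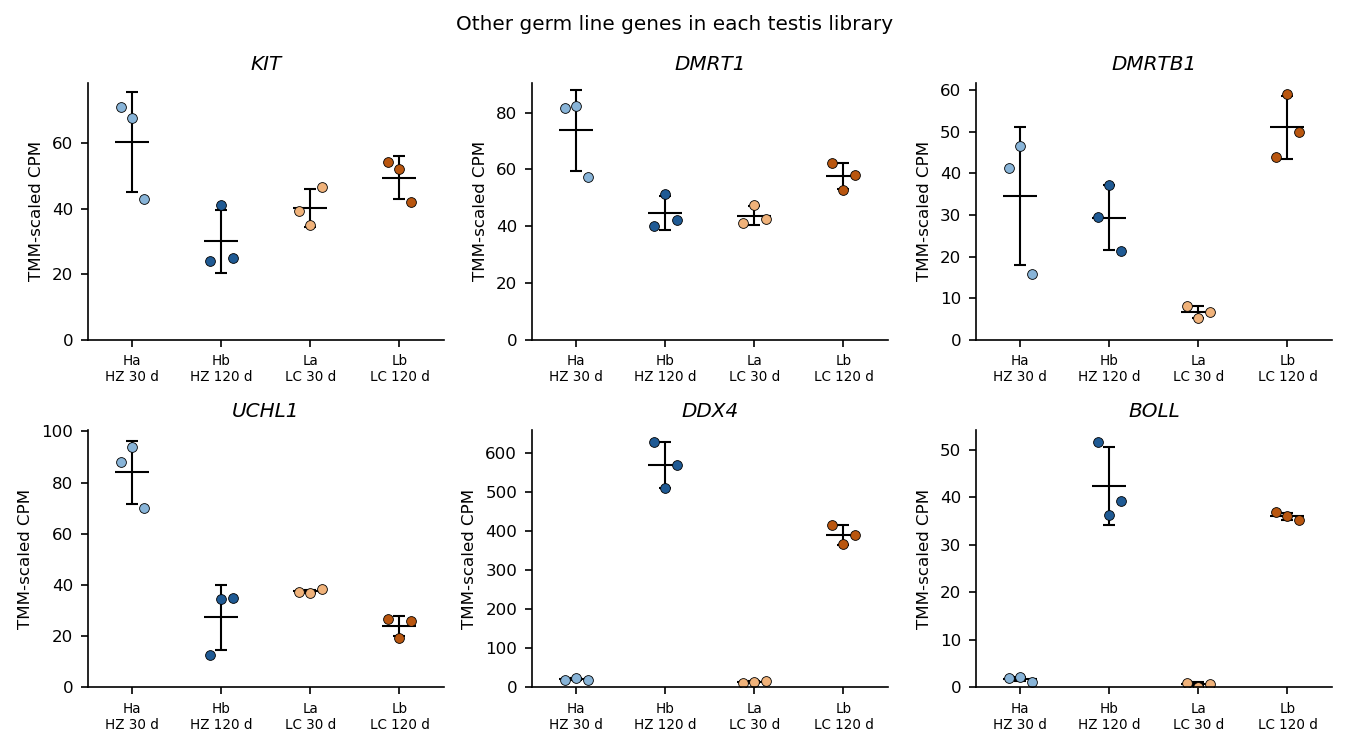
TMM-scaled CPM of KIT, DMRT1, DMRTB1, UCHL1, DDX4 and BOLL in each library (points) of the 4 groups, with mean and SD as bars. DMRTB1 lies between 5.17 and 8.06 CPM in La and between 43.9 and 59.1 CPM in Lb, while in HZ the ages overlap.

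Among 10 RNA-binding genes of germ cells, 3 were higher and 1 lower with age in each breed, and 6 were not called. Their medians were 0.03 in HZ and 0.12 in LC. DDX4 had 19.8, 22.7 and 19.2 CPM in Ha and 629, 511 and 570 CPM in Hb, and 11.9, 12.2 and 15.3 CPM in La and 416, 367 and 390 CPM in Lb. The ages were far apart, with 4.79 ± 0.16 in HZ (edgeR adjusted p = 1.72e-06) and 4.91 ± 0.15 in LC (edgeR adjusted p = 6.78e-08). BOLL, a relative of DAZL that acts in meiosis, had 2.0, 2.05 and 1.16 CPM in Ha and 51.6, 36.3 and 39.2 CPM in Hb, a rise of 4.61 ± 0.29 (edgeR adjusted p = 1.4e-05). In LC BOLL rose by 5.84 ± 0.40 (edgeR adjusted p = 4.42e-06). MAEL, of the piRNA pathway, rose by 3.13 ± 0.15 in HZ (edgeR adjusted p = 4.7e-06) and by 3.71 ± 0.12 in LC (edgeR adjusted p = 8.74e-08). DND1, a partner of NANOS2, was the gene called lower in HZ, with -1.57 ± 0.20 (edgeR adjusted p = 0.000344). In LC, where it was not called, it had 19.7, 24.3 and 16.6 CPM in La and 15.3, 14.5 and 10.9 CPM in Lb. NANOS1, a relative of NANOS2 and NANOS3, had 0.652, 0.683 and 0.699 CPM in Ha and 0.638, 0.232 and 0.264 CPM in Hb, and was not called in HZ. It was the gene called lower in LC, with -1.34 ± 0.50 (edgeR adjusted p = 0.0394). That call was lost without La1, La2, La3, Lb2 or Lb3 (adjusted p of edgeR between 0.059 and 0.122), without a filter (edgeR adjusted p = 0.0681) or with the replicate block (edgeR adjusted p = 0.0608). DESeq2 (adjusted p = 0.127, where edgeR had 0.0394) and limma on log2(FPKM + 1), at -0.30, did not call it either. Between the breeds edgeR called 0 of 10 in Ha vs La, with 7 at an unadjusted p under 0.05, and 0 of 9 in Hb vs Lb, with 2. DESeq2 and limma also called 0 in both. In the interaction edgeR called 0 of 10, with 5 at an unadjusted p under 0.05, DESeq2 called 0 and limma 1 on each FPKM scale.

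Among 9 paralogs of the members, of which BOLL and NANOS1 are also in the list of RNA-binding genes, the directions with age were mixed. In HZ 3 were higher and 4 lower with age, with a median of -1.43, or -0.82 without Ha3, and in LC 2 were higher and 6 lower, with a median of -1.72. ID3 had 20.7, 19.2 and 18.4 CPM in Ha, 6.73, 6.22 and 5.14 in Hb, 36.3, 44.0 and 40.3 in La, and 7.17, 10.3 and 8.37 in Lb. Where ID4 was higher with age, ID3 was lower in every library, with -1.69 ± 0.18 in HZ (edgeR adjusted p = 0.000171) and -2.21 ± 0.17 in LC (edgeR adjusted p = 9.34e-06). ID1 had -1.74 ± 0.22 in HZ (edgeR adjusted p = 0.000323) and -1.87 ± 0.22 in LC (edgeR adjusted p = 9.95e-05), and ID2 had -2.33 ± 0.43 in HZ (edgeR adjusted p = 0.00227). In LC, ID2 was lower with age as well, with 8.99, 7.34 and 6.16 CPM in La and 1.94, 1.93 and 2.87 CPM in Lb. ID1, ID2 and ID3 kept these signs under each scaling that was tried, as did ID4, whose calls did not hold under all of them.

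ZBTB32, a relative of ZBTB16, rose by 5.32 ± 0.71 in HZ (edgeR adjusted p = 0.000439) and by 6.84 ± 0.16 in LC (edgeR adjusted p = 3.54e-08). SALL3 had 1.16 ± 0.42 in HZ (edgeR adjusted p = 0.042), not called without Ha1, Ha2, Hb2 or Hb3 (adjusted p of edgeR between 0.0686 and 0.131). It was also not called with total counts, at 0.85 (edgeR adjusted p = 0.106), or by limma, at 0.49 on log2(FPKM + 0.1) and 0.13 on log2(FPKM + 1). SALL1, a relative of SALL4, had 53, 38 and 40 counts in La and 2, 1 and 4 in Lb, and -4.00 ± 0.52 between them (edgeR adjusted p = 0.000191), or -4.66 without Lb3, and was not called by limma on log2(FPKM + 1). In HZ, SALL1 had 22, 21 and 93 counts in Ha and 0, 3 and 2 in Hb. In Ha vs La 1 paralog was called (without Ha3 2 were higher and 1 was lower), ID3, which was higher in LC by 1.04 ± 0.11 (edgeR adjusted p = 0.00155). It sat at the threshold, with 0.999 without Ha3, 0.990 without La2 and 0.97 by limma on log2(FPKM + 1), none of them called. In Hb vs Lb edgeR called 0 of 7, with 1 at an unadjusted p under 0.05, and in the interaction 0 of 9, with 3, or 1 with a more positive change in LC without Ha3. DESeq2 and limma called 0 in both.

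The genes with the nearest profiles over the 12 libraries were sought among 16633 genes, by the root mean square difference of log2 CPM about each gene's mean. For ZBTB16 these were IFT122, at 0.09, and UBE2E3, at 0.12. For SOHLH1 they were BCORL1, at 0.11, and PFAS, at 0.18, and for DAZL LOC110257929, at 0.19, and ZIM2, at 0.20. NANOS3 lay nearest to LIPH (0.24) and CMYA5 (0.30), SALL4 to GALK1 (0.24) and GREB1 (0.26), and ID4 to KCNK1 (0.26) and LOC100154423 (0.28). UTF1 lay nearest to DRAXIN (0.32) and CD101 (0.33), NANOS2 to RALYL (0.37) and SBK1 (0.38), and STRA8 to LOC100738280 (0.60) and Prss44 (0.63). The members with few counts had the more distant neighbours, but such a difference also grows with the spread of the gene itself. That spread, as the root mean square about the mean, was 0.40 for ZBTB16, 0.44 for SOHLH1 and 0.63 for ID4. It was 0.86 for UTF1, 1.44 for NANOS2 and 1.81 for STRA8. A small difference from a gene of small spread, such as ZBTB16 or SOHLH1, is by itself no sign of a shared profile. Among the members themselves, ZBTB16 and SOHLH1 were closest, at 0.28, then UTF1 and SALL4, at 0.40, and NANOS2 and STRA8 were farthest apart, at 3.15.

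Positions in the assembly Sscrofa11.1 were used for 7 members. NANOS2 lies on chromosome 6 at 52218889 to 52219834, ID4 on chromosome 7 at 15281535 to 15284895, and UTF1 on chromosome 14 at 141190170 to 141193409. SALL4 is on chromosome 17 at 53082610 to 53103023 and DAZL on chromosome 13 at 3762896 to 3783848. Among the lncRNAs of the deposited table that could be given a position, none lay within 10 kb of these 5 genes or of STRA8. ZBTB16, on chromosome 9 at 41639536 to 41839254, had 14 lncRNA transcripts of 4 genes in reach. LOC106504879 (41667561 to 41678153) and LOC110255434 (41738359 to 41745104) lie within it, and LOC106504875 and LOC102168180 lie 65 and 1342 bp beyond its ends.

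Both lncRNA genes inside ZBTB16 were lower in the older boars. In Ha vs Hb edgeR called 2 of the 5 transcripts tested, where 56.2% of 2909 lncRNAs were called, and in La vs Lb 2 of 4, where 61.1% of 2988 were. LOC106504879 had 739, 797 and 920 CPM within the lncRNA table in Ha and 132, 460 and 167 CPM in Hb. In LC it had 745, 775 and 425 CPM in La and 200.3, 229 and 233 CPM in Lb. Hb2 was the highest of the older libraries and La3 the lowest of the younger LC ones, and within each breed the ages did not overlap. The log2 fold change was -1.72 ± 0.51 in HZ (edgeR adjusted p = 0.0232) and -1.56 ± 0.33 in LC (edgeR adjusted p = 0.00356).

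LOC110255434 had 362, 251 and 253 CPM in Ha and 53.1, 135 and 62.8 CPM in Hb, and 295, 445 and 154 CPM in La and 116, 78.4 and 112 CPM in Lb. Again no older library reached a younger one of its breed. Its values were -1.81 ± 0.44 in HZ (edgeR adjusted p = 0.0101) and -1.55 ± 0.44 in LC (edgeR adjusted p = 0.0151). The HZ count of 2 was 1 without Ha1, Ha2, Ha3, Hb1 or Hb3, and the LC count was 1 without La2. Both counts were 1 with library sizes of the coding genes, and the LC count was also 1 with the replicate block. Between the breeds edgeR called 0 of 4 in Ha vs La, where 6.35% of 2096 lncRNAs were called, and 0 of 4 in Hb vs Lb, where 3.14% of 3213 were. None of them had an unadjusted p under 0.05, DESeq2 called 0, and 1 was called in Ha vs La without Ha2. Whether reads of ZBTB16 introns add to these lncRNA counts was not tested.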

How the data were processed

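Testis RNA of 12 boars was depleted of ribosomal RNA, made into strand-specific libraries and sequenced. The authors filtered reads with fastp 0.18.0, removed ribosomal reads with Bowtie2 2.2.8, aligned the others to Sus scrofa 11.1 by HISAT2 2.1.0 and assembled transcripts with StringTie 1.3.4. The deposited estimated counts, per gene for coding genes and per transcript for lncRNAs, are not normalized, and 29.4% to 33.6% of a library's values are not whole. The authors also deposited FPKM values, computed with StringTie, which account for transcript length and mapped fragments. The tool that made the counts and its strand setting are not stated.

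Estimated counts were rounded to whole numbers. In each of 4 pairwise comparisons of 6 libraries, edgeR 4.0.16 (R 4.3.3) filtered genes with filterByExpr (minimum count 10), normalized by TMM and applied its quasi-likelihood test, with Benjamini-Hochberg adjustment over all genes tested, or over all lncRNAs. The interaction of breed and age was fitted on all 12 libraries. The standard error is the absolute log2 fold change divided by the square root of the F statistic. Ratios against groups with few counts carry a 95% exact binomial interval, for counting error only. Libraries of the same replicate number showed little shared deviation from their group means, with correlations between -0.0222 and 0.0527 over 12 pairs. Such correlations cannot settle whether a batch went by replicate number, which is not stated. No replicates were duplicates, as chi-square per gene was between 17.8 and 95.0.

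The members and lists were chosen with earlier results of these data known. Named are all members, in 4 lists of related genes the 3 called genes of smallest adjusted p that rose and the 3 that fell in each age comparison and every gene called between breeds or in the interaction, the 2 nearest genes in profile (log2 CPM, prior count 2), the gene of highest mean CPM and any at or under 3 counts of each marker list, and lncRNAs within 10 kb. Genes of highest mean FPKM in a group and other markers were added after their values were seen. Alternatives were DESeq2 1.42.0, limma 3.58.1 on log2(FPKM + 1) and log2(FPKM + 0.1), RLE factors, total counts alone, no filter, a stricter filter (at least 10 counts in each library of either group), a single fit of all 12 libraries, the replicate number as a block, library sizes of the coding genes for lncRNAs, CPM in place of FPKM for the order of groups, and leaving out each library in turn. The edgeR and DESeq2 steps of the pairwise comparisons were tested on simulated data, while limma and the interaction were not. Python 3.11.15, numpy 2.4.6, pandas 2.3.3, scipy 1.17.1 and matplotlib 3.10.9 were used for tables and figures.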

Additional observations from a re-analysis of the deposited data

Results flagged for a closer look

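A tested difference between the breeds in the change with age brought 5 genes here. On the log2 scale, the change in LC exceeded that in HZ by 1.53 for DAZL, 1.26 for SOHLH1, 1.3 for KIT, 1.13 for DMRT1 and 3.18 for DMRTB1, each from edgeR's interaction term over the 12 libraries. In Ha3 the levels of all 5 were below those of Ha1 and Ha2, and without it the differences were 1.79 for DAZL, 1.39 for SOHLH1, 1.52 for KIT, 1.32 for DMRT1 and 3.56 for DMRTB1. The call of KIT was lost without Hb1 (1.18, edgeR adjusted p = 0.0657), without most other single libraries and with the replicate block. Groups of 3 libraries were not tested for outlying ones.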

How the results depend on the processing

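Of 690 values of members under other settings, 626 kept their direction and their side of the threshold, 29 lost a call, 4 gained one and 31 changed sign, and where a result changed the cause was not tested. The calls of DAZL in Ha vs La and of DAZL and SOHLH1 in the interaction held under every setting tried. The number of members called in Ha vs Hb was 4 with limma on log2(FPKM + 1) and 5 to 7 when a library was left out (5 without Ha3 or Hb1). In La vs Lb it was 3 with limma on log2(FPKM + 1) and 4 to 7 when a library was left out (4 without La1, where ID4, SALL4 and UTF1 were not called). Over all genes, the calls in Ha vs La were 507 with limma on log2(FPKM + 1) and 831 to 1466 when a library was left out. In Hb vs Lb they were 1176 with DESeq2, 1258 with all 12 libraries in a single fit, 154 with the replicate block, and 97 to 1029 when a library was left out. For the interaction they were 1364 with DESeq2, 1365 with limma on log2(FPKM + 0.1) and 437 to 1242 when a library was left out. Of the lncRNAs near ZBTB16, library sizes of the coding genes left 1 called between the ages of HZ and 1 between those of LC, and the replicate block left 1 in LC. Leaving out a library gave 1 to 2 in Ha vs Hb, 1 to 2 in La vs Lb and 0 to 1 in Ha vs La. With the replicate block the edgeR adjusted p of UTF1 in LC was 0.0519, that of NANOS1 in LC was 0.0608, that of KITLG in Hb vs Lb was 0.0659 and that of KIT in the interaction was 0.057. Whether the replicate numbers pair libraries is not stated. UTF1 in HZ was not called with RLE factors (edgeR adjusted p = 0.0517) or without a filter (edgeR adjusted p = 0.0502), and in LC not with all 12 libraries in a single fit (edgeR adjusted p = 0.0582).

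Signs changed in values that were not called. SOHLH1 in La vs Lb was -0.16 and -0.14 from log2(FPKM + 0.1) and log2(FPKM + 1), and -0.014 with total counts. DAZL in Hb vs Lb was 0.040 and 0.038 on these FPKM scales and -0.15 to 0.015 when a library was left out. In the interaction the same FPKM scales gave 0.024 and 0.064 for NANOS2, 0.21 and 0.31 for NANOS3, and 0.049 and 0.082 for ID4, and total counts gave 0.10 for NANOS3 and 0.06 for ID4. Leaving out a library gave -1.01 to 0.51 for NANOS2, -0.38 to 0.20 for NANOS3 and -0.27 to 0.23 for ID4 there. It gave -0.49 to 0.23 for NANOS2 between the younger groups, and between the older groups -0.0070 to 1.36 for UTF1 and -0.10 to 0.35 for ZBTB16. By CPM, 5 members had lower medians at 120 days in both breeds, and by FPKM 6, with SOHLH1 as the difference. Few counts limit NANOS2, STRA8 and UTF1: in the older boars NANOS2 had at most 2 counts in a library.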
